A study of Homo sapiens with 12 samples.

Results

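The genes described here are 5 subunits of the transcription factor NF-kB (NFKB1, NFKB2, REL, RELA and RELB) and 5 genes that restrain or feed back on it (NFKBIA, NFKBIE, NFKBIZ, TNFAIP3 and BIRC3). They were taken by gene symbol from a table of 61806 genes. The rule itself uses no measured value, but the members were chosen with earlier results of these data known. All 10 were found once each, and all 10 were among the 17447 genes that passed the filter on low counts. The table covers 12 RNA-seq libraries of TPC-1 and K1, which are established human lines of papillary thyroid cancer. Each line received a negative control siRNA or an siRNA against TRIM35, one of the tripartite motif family of ubiquitin ligases, and RNA was taken 24 h later. The 4 groups of 3 libraries were thus TPC-1 with control siRNA, TPC-1 with TRIM35 siRNA, K1 with control siRNA and K1 with TRIM35 siRNA. All 12 libraries carry 1 batch label. Whether the libraries of a group came from separate cultures is not given in the sources used here, so the spread behind each p-value is that between libraries and may be technical. The title of the third TPC-1 control library names TPC-3, whereas its other labels name TPC-1, and it was kept in that group.

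NF-kB acts as dimers of the Rel proteins. NFKB1 and NFKB2 are made as precursors and processed to p50 and p52, whereas RELA, RELB and REL carry the domains that activate transcription. In unstimulated cells IkB proteins such as NFKBIA and NFKBIE hold dimers in the cytoplasm until an IkB kinase marks them for destruction, and many genes of the pathway are themselves NF-kB targets. All values below are mRNA levels, and they say nothing direct about protein amount, processing or nuclear entry.

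The sequences upstream of the members show which of them carry the DNA motif that NF-kB binds, the kappaB consensus. Transcription start windows from RefSeq (GRCh38.p14) covered 8 of the 10 genes in 13 windows; RELB and NFKBIE had no entry. In the 250 bases before the start, 9 of 13 windows held at least 1 match to the kappaB consensus, on either strand. Of all 35116 windows of the same length in the table, 9.96% did. By gene, 7 of 8 had a match, some of them with more than 1 window. The share of all genes with a match was not counted. NFKB2 has such matches before 2 of its 3 starts and NFKBIZ before both of its starts, and 1 stretch of each is shown. NFKB1 has no match before its other start, at chr4:102501934. The stretches below hold the matches in capitals, read 5′ to 3′ on the gene's strand, and are shown to set the sites of the members side by side. They lie at chr6:137867188-137867217 (TNFAIP3, plus strand), chr3:101827757-101827786 (NFKBIZ, plus), chr10:102395674-102395703 (NFKB2, plus), chr11:102317275-102317304 and chr11:102317339-102317368 (BIRC3, plus), chr4:102501300-102501329 (NFKB1, plus) and chr2:60881518-60881547 (REL, plus).
TNFAIP3: ctttGGAAAGTCCCgtGGAAATCCCCgggc
NFKBIZ: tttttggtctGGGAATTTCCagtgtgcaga
NFKB2: tggtattttcGGGACTTTCCtaagctgctc
BIRC3 upstream match: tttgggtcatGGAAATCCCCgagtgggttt
BIRC3 downstream match: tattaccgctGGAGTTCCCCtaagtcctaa
NFKB1: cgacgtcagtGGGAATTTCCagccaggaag
REL: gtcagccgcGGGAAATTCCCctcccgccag

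TNFAIP3 carried 2 matches that begin 67 and 55 bases before its start, and BIRC3 carried 2 that begin 199 and 135 bases before its start. On the gene's strand, the same 10-base match stood in NFKB1 and NFKBIZ, 49 and 223 bases before the start. NFKBIA and REL held that match on the opposite strand. TNFAIP3 and BIRC3 also shared a match, 55 and 199 bases before the start. The other TNFAIP3 match is the reverse complement of the NFKB2 match shown. NFKBIA and RELA are given as whole windows because they mark the contrast within the set. NFKBIA (chr14:35404750-35404999, minus strand) has a match that begins 81 bases before its start. RELA (chr11:65663858-65664107, minus strand) is the member with no consensus match in any of its windows. Its other window, at chr11:65662917-65663166, is not shown. These letters describe the windows only; binding was not measured in these libraries.
NFKBIA: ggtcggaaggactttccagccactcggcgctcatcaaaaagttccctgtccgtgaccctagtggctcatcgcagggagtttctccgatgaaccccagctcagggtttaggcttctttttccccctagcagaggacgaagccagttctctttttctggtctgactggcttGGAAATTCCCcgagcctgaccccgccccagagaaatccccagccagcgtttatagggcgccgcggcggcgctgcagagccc
RELA: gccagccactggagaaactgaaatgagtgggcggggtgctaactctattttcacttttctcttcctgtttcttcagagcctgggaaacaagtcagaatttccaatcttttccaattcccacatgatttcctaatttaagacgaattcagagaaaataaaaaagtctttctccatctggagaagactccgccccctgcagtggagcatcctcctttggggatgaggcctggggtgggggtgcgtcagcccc

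Library totals ran from 16705044 to 22928861 counts. TRIM35 itself was close to control: in FPKM (fragments per kilobase of exon, scaled to library size) it measured 2.86, 2.91 and 3.06 in the TPC-1 control libraries and 2.34, 2.56 and 2.58 in the siRNA libraries. These do not overlap, and the fitted fold was 0.848 (95% interval 0.668 to 1.08, edgeR adjusted p = 1); the exact two-sided permutation test gave p = 0.1, the smallest that 3 against 3 libraries allow. In K1 it measured 1.51, 1.85 and 1.47 against 1.20, 1.49 and 1.53 FPKM (exact permutation p = 0.5), with overlap and a fitted fold of 0.879 (95% interval 0.685 to 1.13, edgeR adjusted p = 1). Of 10 thyroid markers, PAX8, FOXE1 and HHEX reached a mean of 1 FPKM in each group, while NKX2-1 had no count in any group; the summed level was 25.01 to 29.01 FPKM in TPC-1 and 112 to 147 in K1. Of 6 epithelial markers, KRT8 and KRT18 were above a mean of 1 FPKM in each group and CDH1 had no count in TPC-1; the list summed to 38.17 to 47.73 FPKM in TPC-1 and 50.30 to 77.58 in K1. None of 10 leukocyte markers reached a mean of 1 FPKM in TPC-1, and only CD14 did in K1, where the list summed to 4.96 to 6.59 FPKM against 0.33 to 1.05 in TPC-1; its part in the line differences below was not tested. The 8 fibroblast markers summed to 1.83 to 2.55 FPKM in TPC-1 and 7.53 to 9.53 in K1, and the 5 endothelial markers to 0.19 to 0.38 and 1.47 to 2.04; their part was not tested either. In such bulk libraries, fewer cells with an mRNA and less of it per cell cannot be told apart.

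The widest differences between K1 and TPC-1 were in TNFAIP3, NFKBIA, NFKB2 and NFKBIZ. TNFAIP3 (A20, a ubiquitin-editing enzyme that ends signalling from TNF and interleukin 1 receptors) was 32.7-fold higher in K1 control libraries, NFKBIA (IkB alpha) 6.21-fold, NFKB2 3.63-fold and NFKBIZ 2.91-fold, whereas NFKBIE (IkB epsilon) was lower and BIRC3 and REL were not called. With edgeR's quasi-likelihood test and Benjamini-Hochberg adjustment over all genes tested, 7 of 10 members were called higher in K1, against 35.8% of all genes, and 1 was called lower, against 32.1% of all genes. The lines differed so widely that 67.9% of all genes were called in either direction. In 8 of 10 members the libraries did not overlap between lines, against 72.6% of all genes. The count of 8 called members is therefore near the background, and the values of each gene carry more than the count.

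TNFAIP3 measured 1.67, 1.38 and 1.41 FPKM in the TPC-1 control libraries and 52, 50.44 and 53.09 FPKM in the K1 control libraries. The siRNA libraries held 1.21, 1.04 and 1.55 FPKM in TPC-1 and 56.20, 51.49 and 45.72 in K1. Every K1 library was above every TPC-1 library, and the lowest K1 library had 5412 counts against at most 223 in TPC-1. The log2 fold change between control libraries was 5.03 (SE 0.16; 95% interval of the fold 25.9 to 41.2; edgeR adjusted p = 3.57e-13), and 5.06% of all genes had a higher one. In the TRIM35 siRNA libraries, which share none with the controls, it was 5.23 (SE 0.16, adjusted p = 2.46e-13).

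NFKBIA, the IkB whose resynthesis after degradation shuts off RELA dimers, measured 10.20, 8.13 and 7.51 FPKM in TPC-1 control libraries and 64.38, 56.89 and 49.60 in K1 control libraries. With TRIM35 siRNA it measured 12.71, 9.76 and 7.85 FPKM in TPC-1 and 51.15, 50.12 and 61.82 in K1. The lines did not overlap, and the log2 fold change was 2.64 (SE 0.19, edgeR adjusted p = 7.95e-09) in control and 2.35 (SE 0.19, adjusted p = 2.72e-08) in siRNA libraries. NFKBIZ, an inducible nuclear IkB that helps to switch on a subset of inflammatory genes, measured 15.90, 17.48 and 19.61 FPKM in TPC-1 control libraries and 53.63, 55.18 and 56.10 in K1. Its siRNA libraries ran from 12.78 to 21.22 FPKM in TPC-1 and from 47.47 to 57.51 in K1, again without overlap, with log2 fold changes of 1.54 (SE 0.16, adjusted p = 3.30e-07) and 1.48. NXPE3, on the same strand, overlaps NFKBIZ and had 912 to 2825 counts per library against at least 1551 for NFKBIZ; how reads of shared stretches were counted is not given in the sources used here.

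NFKBIE, a slower-acting IkB, was the only member called lower in K1. It measured 3.00, 2.52 and 2.42 FPKM in TPC-1 control libraries and 2.11, 1.69 and 1.67 in K1 control libraries, which do not overlap but rest on 67 to 177 counts over all 12 libraries. The log2 fold change of -0.63 (SE 0.22, edgeR adjusted p = 0.0201) was not called without the TPC-1 control library 1 (-0.53, adjusted p = 0.0766), the K1 control library 2 (-0.56, adjusted p = 0.0736) or the K1 control library 3 (-0.54, adjusted p = 0.0697), nor under upper-quartile scaling (-0.49, adjusted p = 0.0651). Over its 22 alternatives the adjusted p ran from 0.00862 to 0.0766. In the siRNA libraries NFKBIE measured 3.30, 3.34 and 2.18 FPKM in TPC-1 against 1.55, 1.84 and 2.13 in K1 (-0.76, SE 0.22, adjusted p = 0.00657), a call that held in 22 of 22 alternatives.

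BIRC3 (cIAP2), a ubiquitin ligase of the TNF receptor complex and of the kinase step that controls NFKB2 processing, differed little between lines. It measured 9.46, 11.66 and 15.19 FPKM in TPC-1 control libraries and 11.78, 12.92 and 15.25 in K1. With TRIM35 siRNA the values were 10.25, 11.28 and 16.47 FPKM in TPC-1 and 15.73, 14.67 and 14.08 in K1. The groups overlapped, and the fold between control libraries was 1.02 with a 95% interval of 0.778 to 1.35 (edgeR adjusted p = 0.883). Its level in TPC-1, with means of 12.1 ± 2.89 and 12.7 ± 3.33 FPKM (SD, n = 3), had a coefficient of variation of 22.7% over 6 libraries, against 10.6% over 6 libraries in K1.

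**Figure D1:**
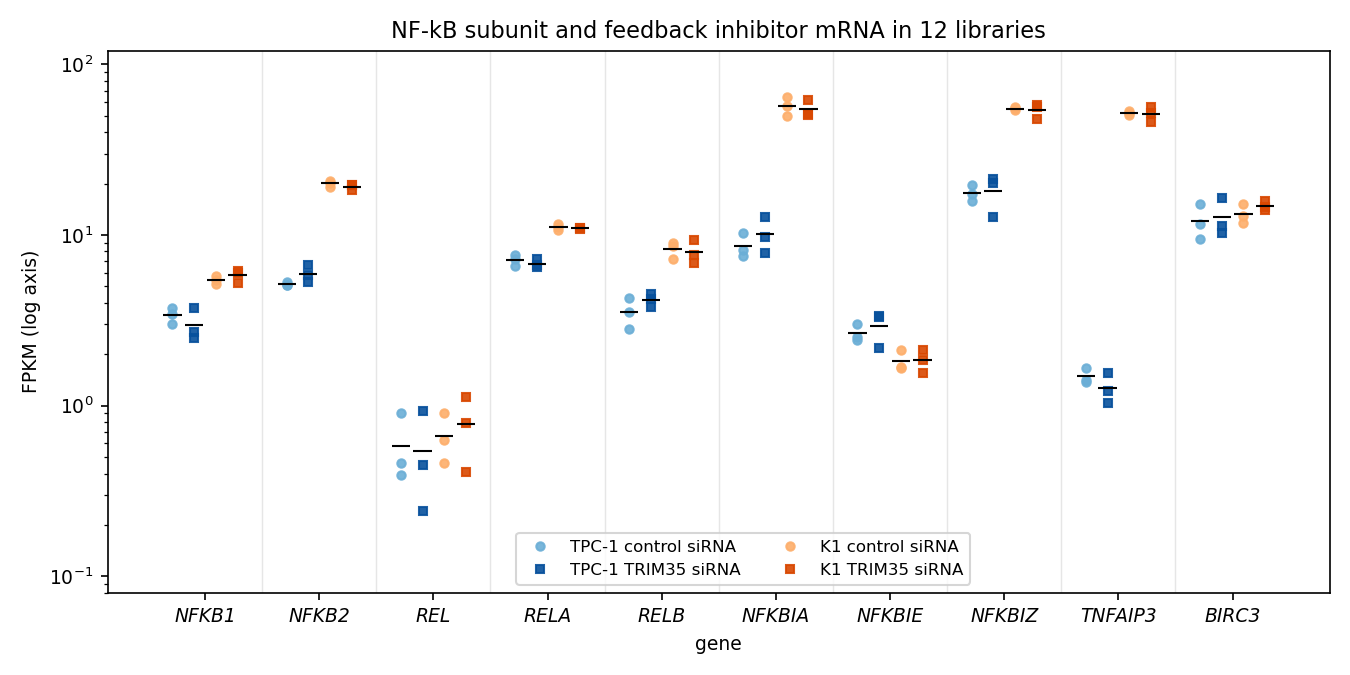
Level of each member in every library, in FPKM on a log axis; points are single libraries, black bars are group means of 3, colours give the line and shapes the siRNA. TNFAIP3 lies between 1.04 and 1.67 in TPC-1 and between 45.72 and 56.20 in K1, while BIRC3 and REL overlap between lines.

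Among the subunits, NFKB2, the p52 precursor of the non-canonical branch, showed the largest line difference in the control libraries. It measured 5.31, 5.12 and 5.08 FPKM in TPC-1 control libraries and 20.22, 20.76 and 19.10 in K1 control libraries, with a log2 fold change of 1.86 (SE 0.12, edgeR adjusted p = 1.53e-09). RELB, its usual dimer partner, measured 2.82, 3.53 and 4.27 FPKM in TPC-1 and 8.92, 8.62 and 7.27 in K1 control libraries, a fold of 2.19 (95% interval 1.66 to 2.89, adjusted p = 6.52e-05). Both genes were higher in every K1 library than in any TPC-1 library. With TRIM35 siRNA the line differences were 1.61 (SE 0.12) for NFKB2 and 0.85 (SE 0.18) for RELB on the log2 scale, and both were called.

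RELA and NFKB1, of the canonical branch, also differed. RELA, the main activating subunit, measured 6.55, 7.68 and 7.20 FPKM in TPC-1 control libraries and 11.66, 11.08 and 10.73 in K1, a fold of 1.46 (95% interval 1.23 to 1.74, edgeR adjusted p = 7.98e-04). NFKB1, the p50 precursor, measured 2.99, 3.44 and 3.72 FPKM in TPC-1 and 5.47, 5.18 and 5.74 in K1, a fold of 1.51 (95% interval 1.21 to 1.87, adjusted p = 0.00226). Neither gene's control libraries overlapped between lines. In the siRNA libraries the log2 fold change was 0.60 (SE 0.12) for RELA and 0.86 (SE 0.15) for NFKB1, the latter close to the 0.85 of RELB, and both were called. REL (c-Rel), best known from lymphoid cells, was the lowest member in both lines, at 0.46, 0.39 and 0.90 FPKM in TPC-1 and 0.46, 0.63 and 0.91 in K1 control libraries. Its fold of 1.05 has a 95% interval from 0.563 to 1.97, so the values are compatible with any fold in that range (edgeR adjusted p = 0.884). In the siRNA libraries the REL line difference was 0.41 on the log2 scale (adjusted p = 0.400), and it was called in 1 of 20 alternatives, without the TPC-1 TRIM35 siRNA library 3 (1.07, adjusted p = 0.0347).

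**Figure D2:**
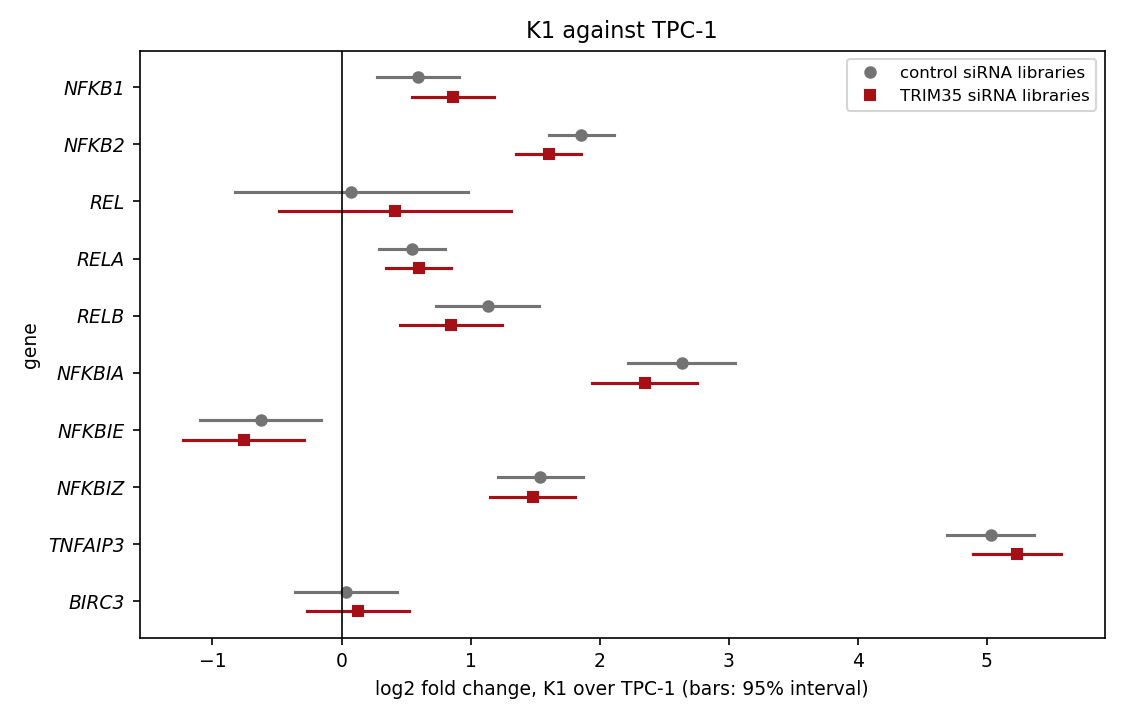
Log2 fold change of each member, K1 over TPC-1, in control siRNA libraries (circles) and in TRIM35 siRNA libraries (squares); bars are 95% intervals from the edgeR fit with 3 libraries a group. TNFAIP3 stands at 5.03 and 5.23, NFKBIE below 0 in both, and the intervals of REL and BIRC3 cross 0.

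The same 8 members were called in the siRNA libraries, with the same direction, as in the control libraries: 7 higher in K1 against 35.9% of all genes, and NFKBIE lower against 32.4% (68.3% of all genes in either direction). In 8 of 10 members the siRNA libraries did not overlap between lines, against 68.4% of all genes. The median log2 fold change of the 10 members was 0.86 in both sets of libraries, and that of all genes tested was 0.06. The 7 members higher in K1 were called under all 23 alternatives in both sets.

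Within a line, the order of levels also differed. In K1 control libraries the mean levels ran NFKBIA 57.0, NFKBIZ 55.0, TNFAIP3 51.8, NFKB2 20.03, BIRC3 13.3, RELA 11.2, RELB 8.27, NFKB1 5.46, NFKBIE 1.82 and REL 0.667 FPKM, and only NFKBIA and NFKBIZ overlapped among neighbours. In TPC-1 control libraries they ran NFKBIZ 17.7, BIRC3 12.1, NFKBIA 8.61, RELA 7.14, NFKB2 5.17, RELB 3.54, NFKB1 3.38, NFKBIE 2.65, TNFAIP3 1.49 and REL 0.583 FPKM. There BIRC3 and NFKBIA, NFKBIA and RELA, RELB and NFKB1, and NFKB1 and NFKBIE overlapped. TNFAIP3 thus stood at rank 3 in K1 and at rank 9 in TPC-1.

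Summed over the 5 subunits, the level was 19.8 ± 1.55 FPKM in TPC-1 and 45.6 ± 1.60 FPKM in K1 control libraries (SD, n = 3). RELA made up 36.1% ± 2.04 of that sum in TPC-1 and 24.5% ± 0.505 in K1, and NFKB2 made up 26.2% ± 2.74 and 43.9% ± 0.833. RELB held nearly the same share in both lines, 17.7% ± 2.32 and 18.1% ± 1.31. REL held 2.91% ± 1.20 in TPC-1 and 1.48% ± 0.557 in K1. The ratio of NFKBIA to RELA mRNA was 1.22 ± 0.292 in TPC-1 and 5.09 ± 0.451 in K1 control libraries, and 1.51 ± 0.440 and 4.97 ± 0.571 with TRIM35 siRNA.

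These comparisons between genes rest on the length that FPKM divides by. The deposited exonic size of NFKB1 is 15679 bases, 3.84 times its longest coding transcript of 4085 bases in GENCODE 29, which is the largest such ratio among the members. Per length of the longest coding transcript, an alternative added after seeing the data, NFKB1 rose from rank 7 to rank 4 in TPC-1 control libraries, at 13.0 ± 1.39, just above RELA at 12.2 ± 0.973. In K1 it stood at 21.0 ± 1.08, below NFKB2 at 32.7 ± 1.39 and above RELA at 19.1 ± 0.807. The order of NFKB1 and RELA within a line is therefore not settled by these values, whereas REL stayed at rank 10 on both lengths. Folds between lines do not use the length.

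**Figure D3:**
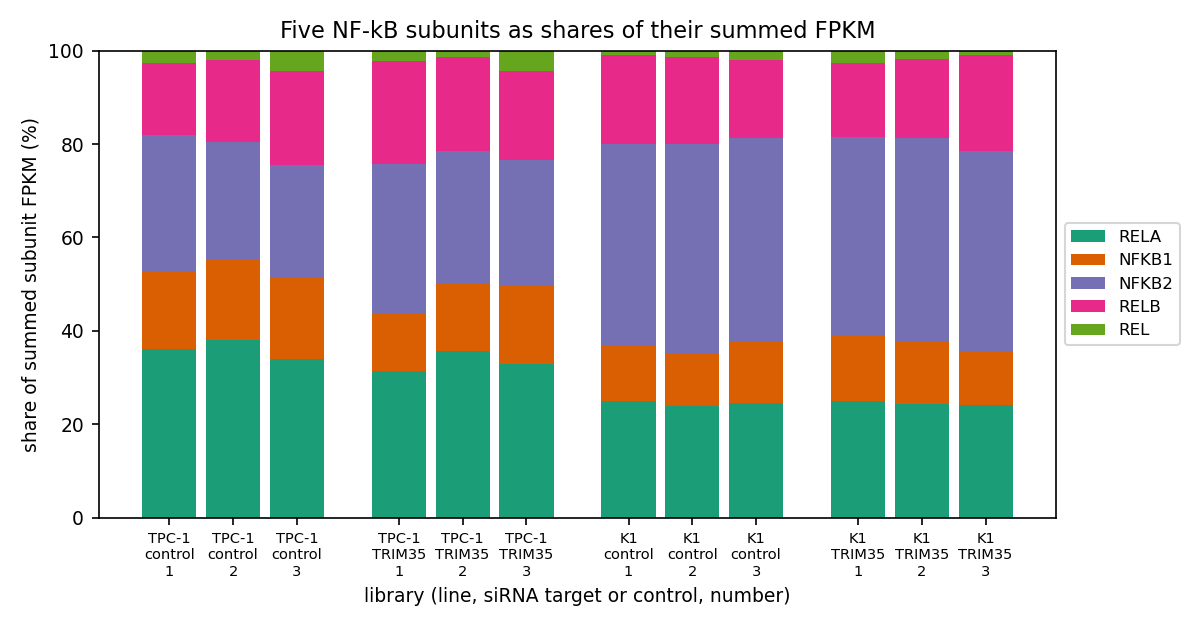
Share of each subunit in the summed FPKM of the 5 subunits, 1 stacked bar per library, labelled with line, siRNA and library number. NFKB2 takes 43.3 to 44.9% in K1 and 24.0 to 29.3% in TPC-1 control libraries; RELA takes 23.9 to 25.0% and 34.0 to 38.1%.

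TRIM35 siRNA gave no called change in any member in either line. In TPC-1, 0 of 10 members were called by edgeR (0% of all genes), and 0 had an unadjusted p under 0.05, against 1.93% of all genes. That fit did not pair libraries. With same-numbered TPC-1 libraries paired in edgeR, an alternative added after seeing the data, NFKB1 had an unadjusted p under 0.05, against 3.37% of all genes. Under that pairing 0 members were called. In K1 the counts were again 0 of 10 (0% of all genes), with 0 members at an unadjusted p under 0.05, against 0.78% of all genes; that share was 3.18% without the K1 TRIM35 siRNA library 3 and 10.1% without both K1 libraries numbered 3, again with 0 members. DESeq2 called 0 members as well, in either line; among all genes it called 2 in TPC-1 and 0 in K1. For the difference of the effect between lines, 0 of 10 members were called (0% of all genes), and 0 had an unadjusted p under 0.05, against 1.73% of all genes. Without both K1 libraries numbered 3, NFKB2, NFKBIA and RELB had one, against 8.08% of all genes, and 0 were called. Likewise 0 members were called for the effect averaged over both lines (0% of all genes; 0 unadjusted against 1.59%).

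The intervals, from the fit without pairing, give the range of changes compatible with the values. For the 9 members other than REL, the fitted fold of siRNA over control ran from 0.856 to 1.18 in TPC-1 and from 0.960 to 1.12 in K1, and all 95% intervals lay between 0.689 and 1.55 in TPC-1 and between 0.727 and 1.47 in K1. A 2-fold change was thus outside the interval of 9 of 10 members in each line. REL, with the widest spread, had intervals of 0.491 to 1.73 in TPC-1 and 0.626 to 2.16 in K1.

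NFKB2 in TPC-1 was the only member in either line for which siRNA and control libraries did not overlap in TMM-scaled log2 CPM, with a higher level in the siRNA libraries, which 3.1% of all genes showed (5.49% in either direction); in K1 it was 0 of 10 members, against 5.07% of all genes. Its siRNA libraries measured 6.64, 5.29 and 5.85 FPKM against 5.31, 5.12 and 5.08; the FPKM values of 1 siRNA library fall just under the highest control. The log2 fold change was 0.19 (SE 0.12, edgeR adjusted p = 1). In K1 it was -0.06 (SE 0.11), with 18.32, 19.67 and 19.52 FPKM after siRNA. RELB and NFKBIA were fitted at 0.23 in TPC-1 (SE 0.19 each) and at -0.05 and -0.06 in K1, and TNFAIP3 at -0.22 (SE 0.15) and -0.02 (SE 0.13), all with adjusted p = 1. The test of the difference between lines gave -0.29 (SE 0.26) for NFKBIA and -0.28 (SE 0.26) for RELB, with adjusted p = 1.

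**Figure D4:**
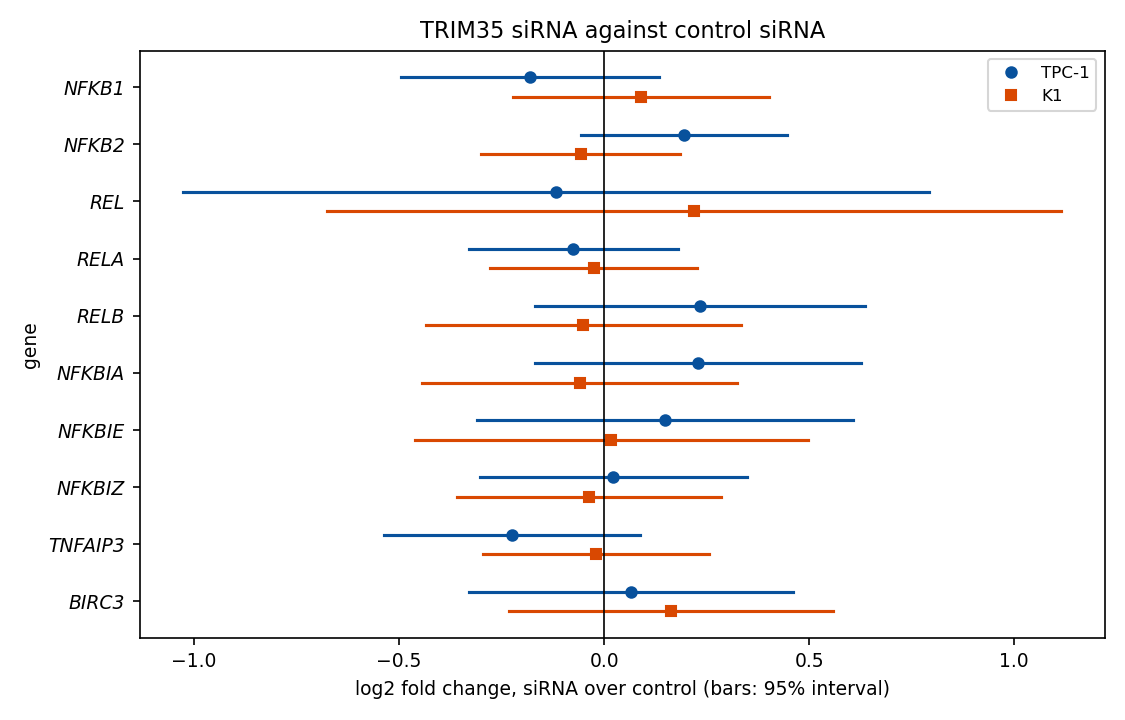
Log2 fold change of each member, TRIM35 siRNA over control siRNA, in TPC-1 (circles) and K1 (squares); bars are 95% intervals from the edgeR fit with 3 libraries a group. Every interval crosses 0, and REL has the widest in both lines.

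The spread between libraries of 1 group had patterns of its own. Between same-numbered TPC-1 libraries, siRNA minus control log2 CPM was 0.29, 0.30 and 0.05 for NFKBIA, 0.30, 0.09 and 0.19 for NFKB2, -0.29, -0.31 and -0.0018 for NFKB1, and -0.04, -0.16 and -0.02 for RELA. These are the members with 1 sign in 3 of 3 pairs, and the other 6 had mixed signs. The third difference was near 0 for NFKB1 and RELA. The share of all genes with 1 sign in 3 of 3 pairs was not counted, so no pattern of the members is read from this. With the pairing in the fit 0 members were called. In TPC-1 both libraries numbered 3 held the highest REL level of their group, at 0.90 and 0.93 FPKM, and the lowest NFKBIA level, at 7.51 and 7.85 FPKM. In K1 the order was opposite between groups: REL was highest in the control library 3 and the siRNA library 1, at 0.91 and 1.13 FPKM, and RELB was lowest there, at 7.27 and 6.85 FPKM. Across the 6 K1 libraries, REL and RELB had Pearson's r = -0.99 and Spearman's rho = -1 on log2 CPM (exact permutation p = 0.00139 and 0.00278, adjusted over 90 pairs 0.0625 and 0.125; r = -0.98 without the 2 libraries farthest from the median of REL). None of the 90 pairs of members in the 2 lines passed the adjustment, although 20 had an unadjusted exact permutation p under 0.05.

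In K1, REL and RELB went with a measure of the whole library, the mean log2 CPM of long genes minus that of short genes. Of 40 relations, these 2 passed the adjustment by Pearson's r and 0 by Spearman's rho. The measure counts REL and NFKB1 among its long genes and RELB, NFKBIA and NFKBIE among its short genes. The direction of these members along it is therefore partly built in. How many of all genes follow it as closely was not counted. The measure was 1.26, 1.47 and 1.71 in control libraries and 1.77, 1.64 and 1.24 in siRNA libraries of K1. REL, whose exonic size is larger than that of 96.3% of genes, had Pearson's r = 0.99 and rho = 1 with it over the 6 K1 libraries (exact permutation p = 0.00139 and 0.00278, adjusted over 40 relations of the members with this and a GC measure 0.0278 and 0.0556; r = 0.96 without the 2 farthest libraries). RELB had r = -0.99 and rho = -1 (exact permutation p = 0.00139 and 0.00278, adjusted 0.0278 and 0.0556; r = -0.999 without them). RELA, NFKBIA, NFKB2 and NFKBIE had r of -0.98, -0.98, -0.95 and -0.94, each with an adjusted exact permutation p between 0.0635 and 0.0741. TNFAIP3, NFKBIZ, BIRC3 and NFKB1 had r between 0.15 and 0.45. In TPC-1 the measure was 1.64 and 1.67 in the libraries numbered 3 and 1.26 to 1.40 in the other 4, so no correlation is given there. Between those 2 libraries and the other 4, NFKBIE measured 2.42 and 2.18 against 2.52 to 3.34 FPKM, and REL and NFKBIA did not overlap either. The same held for NFKB1, at 3.72 and 3.75 against 2.49 to 3.44 FPKM, and BIRC3, at 15.19 and 16.47 against 9.46 to 11.66. The share of all genes without overlap there was not counted. RELB, at 4.27 and 4.21 against 2.82 to 4.53 FPKM, RELA, at 7.20 and 7.19 against 6.46 to 7.68, and NFKB2, at 5.08 and 5.85 against 5.12 to 6.64, overlapped and did not show the order they had in K1. The part of this measure in the members' spread was not tested.

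**Figure D5:**
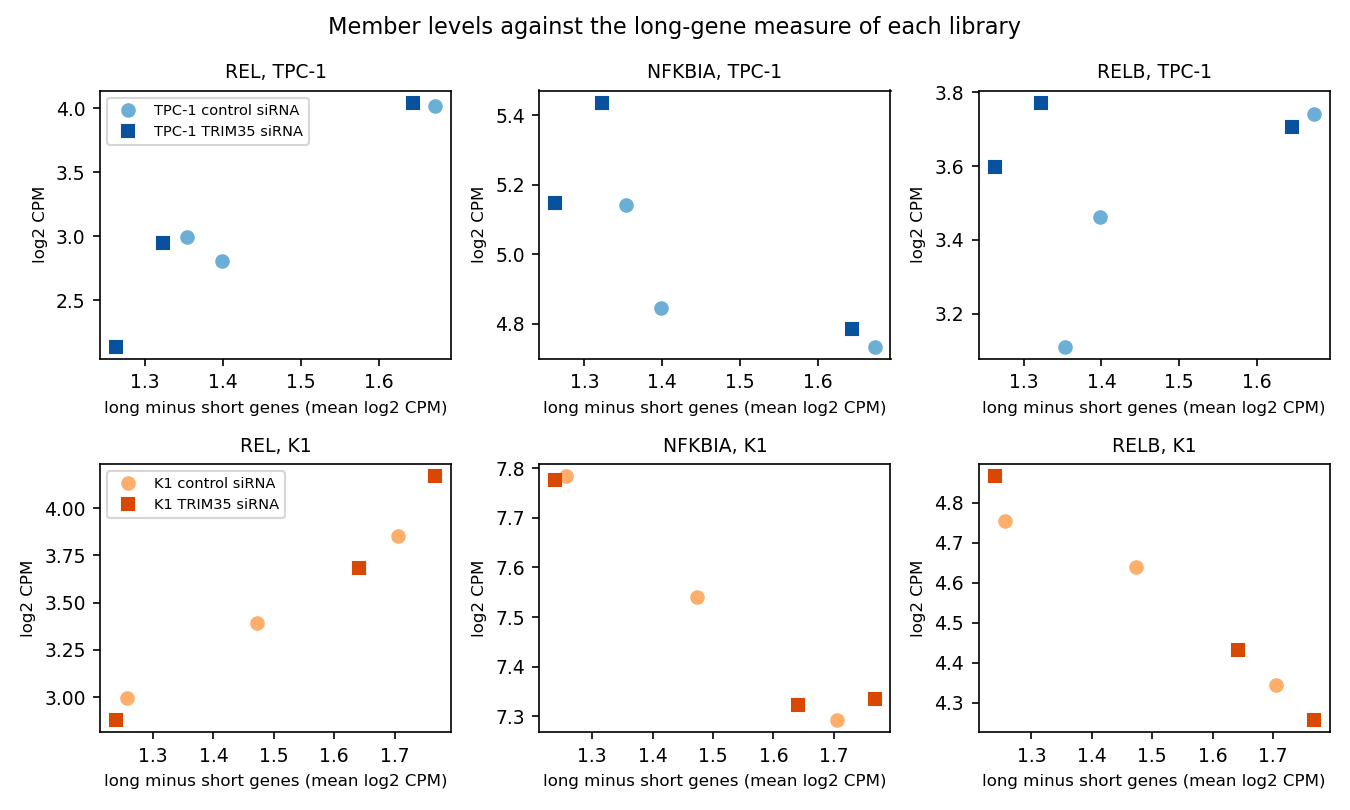
Level of REL, NFKBIA and RELB (log2 CPM, TMM-scaled) against the long-gene measure of each library (mean log2 CPM of long minus short genes), with TPC-1 above and K1 below; each point is 1 library. In K1, REL rises and NFKBIA and RELB fall along the axis (r of 0.99, -0.98 and -0.99). REL is among the long genes of the measure, and NFKBIA and RELB are among the short genes. In TPC-1 the 2 libraries numbered 3 stand apart, and RELB there lies within the range of the other 4.

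The pathway around the members also differed between lines, and each count below reads against the 35.8% and 32.1% of all genes called higher and lower. Of 11 ligands, 6 could be tested. Of these, 4 were higher in K1 control libraries, 1 was lower and the median log2 fold change was 3.67, against 0.06 for all genes. TNF had 5 to 8 counts per TPC-1 library and IL1A 10 to 17, against at least 132 and 5651 in K1. Ligands low in both lines were left out by the filter on low counts, so this count and median are partly set by the filter. IL1B, a ligand of the interleukin 1 receptor, measured 2.72 ± 0.505 FPKM in TPC-1 and 1127 ± 63.6 in K1 (8.60, SE 0.24, SD over 3 libraries), IL1A 0.347 ± 0.0666 and 165.5 ± 3.06, and TNF 0.25 ± 0.0173 and 5.23 ± 0.531. TNFSF12 (TWEAK), a ligand of the non-canonical branch, was lower in K1, at 0.537 ± 0.133 against 1.79 ± 0.155 FPKM.

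Of 19 receptors, 7 were higher, 6 lower and 6 not called, with a median of 0.06. IL1R1, the receptor for both interleukin 1 forms, was higher in K1 at 1.69 (SE 0.12, edgeR adjusted p = 7.62e-09), TNFRSF1A, the main TNF receptor, was lower at -0.56 (SE 0.14), and LTBR was higher at 0.39 (SE 0.13) but was not called in the siRNA libraries (0.28, adjusted p = 0.0722). In the siRNA libraries 5 receptors were higher and 6 lower, with a median of -0.11. TNFRSF12A, the TWEAK receptor, measured 32.1 ± 10.4 FPKM in TPC-1 and 35.5 ± 10.03 in K1 and was not called. Of 30 upstream adaptors, kinases and ubiquitin ligases, 5 were higher and 14 lower, with a median of -0.31. IRAK1, a kinase of interleukin 1 and Toll-like receptors, stood at -2.16 (SE 0.16), UBE2N at -1.07 (SE 0.17) and TAB2 at -0.94 (SE 0.14). IRAK2, a kinase of the same receptors, was among the 5 higher, at 3.45 (SE 0.20), as was the adaptor MYD88 at 0.72 (SE 0.17). BIRC2 (cIAP1), the close relative of BIRC3, measured 32.60, 38.71 and 42.63 FPKM in TPC-1 and 49.11, 49.23 and 51.65 in K1 (0.30, SE 0.15, adjusted p = 0.0880); it was called in the siRNA libraries (0.45, SE 0.15, adjusted p = 0.0144).

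Of 20 other IkB proteins and negative regulators, 7 were higher, 8 lower and 5 not called, with a median of 0.24; in the siRNA libraries 7 were higher and 7 lower, with a median of 0.013. TNIP1, an adaptor through which A20 reaches its targets, was higher in K1 at 1.12 (SE 0.13, edgeR adjusted p = 1.44e-06), at 37.4 ± 3.58 against 16.1 ± 1.14 FPKM. TAX1BP1, RNF11 and PPP4C were lower, at -0.40, -0.36 and -0.49. Of 40 NF-kB target genes, 38 were tested; 23 were higher in K1, 4 lower and 11 not called, with a median of 1.12. The 4 targets with the highest mean FPKM over all 12 libraries are named here, a choice that favours genes very high in 1 line. The chemokines CXCL8, CXCL1 and CXCL2 stood at 5.64, 4.24 and 4.26, and IL6 at 4.62. CXCL8 measured 49.2 ± 2.42 FPKM in TPC-1 and 2615 ± 197 in K1. The 4 targets called lower were CCL2 at -1.75, CD83 at -1.02, BCL2L1 at -1.02 and PLAU at -0.40. In the siRNA libraries 25 targets were higher and 5 lower, with a median of 1.04. PLAU was not called there (-0.29, edgeR adjusted p = 0.0592). No gene of these 5 lists was called after TRIM35 siRNA in either line.

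Of 7346 genes with a mean of at least 5 FPKM in the higher line, those whose log2 CPM lay nearest to TNFAIP3 over the 12 libraries were LINC02454, CLDN1 and TGFBI, at root mean square distances of 0.17, 0.21 and 0.22. For NFKBIA they were SOCS3, WASF3 and BET1, at 0.098, 0.11 and 0.11. The profiles include the line difference, so a gene near a member has a line difference of like size. Its part in these distances was not separated from the spread between libraries.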

How the data were processed

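RNA from TPC-1 and K1 cells was sequenced in 12 libraries. Per the submitters' processing notes, cutadapt 1.9.1 and hg38 were used; of aligner, counting tool, annotation and strandedness, each was not given in the sources used here. Raw counts and FPKM per gene and library were deposited by the authors in 1 table. Reads of genes that overlap on opposite strands cannot be told apart where strand was not used: RELA-DT had 3 to 94 counts, WAKMAR2, opposite TNFAIP3, 3 to 68.

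The deposited counts were tested with edgeR 4.0.16 (R 4.3.3): filterByExpr, TMM, quasi-likelihood fit with 1 mean per group over 12 libraries and 8 residual degrees of freedom, called at an adjusted p under 0.05, with 95% intervals. Alternatives were other scalings, DESeq2 1.42.0, limma 3.58.1 on log2(FPKM + 0.1) and log2(FPKM + 1), other filters, the replicate block, only the groups compared, and leaving libraries out; the alternatives added after seeing the data are named as such. Levels are the deposited FPKM. The procedure was tested on simulated data. Members, gene lists and tests were chosen with earlier results of these data known. Named genes are the members, TRIM35, the 4 tested genes of each pathway list with the highest mean FPKM plus TNF and IL1B, and the 3 genes nearest to the 2 members with the largest line difference. The 4 target genes called lower in K1 control libraries are named as well, and so are IRAK2 and MYD88.

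The labels number the libraries 1 to 3 in each group. In TPC-1 the same-numbered libraries deviated together (r = 0.752, 0.385 and 0.838 over genes), so a block was run there as an alternative. The main fit, which gave the p-values, SEs and intervals above unless a setting is named, used no pairing. In K1 the same-numbered libraries did not deviate together (-0.801, 0.082 and -0.828). There, control library 1 went with siRNA library 3 (0.833) and control library 3 with siRNA library 1 (0.801).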

Additional observations from a re-analysis of the deposited data

How the results depend on the processing

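The 0 calls after TRIM35 siRNA and the 7 members higher in K1 were the same under every alternative run. With the replicate block, within lines or in TPC-1 only (the latter added after seeing the data), 0 members were called after siRNA and 7 were higher and 1 lower in K1. The block thus changed no call of a member. In K1 it joined same-numbered libraries, of which those numbered 1 and those numbered 3 deviated in opposite directions. It therefore cannot show whether pairing matters in K1. NFKBIE set the count of lower members, which was 0 in control libraries under upper-quartile scaling, with a mean FPKM of at least 5 (NFKBIE untested there, and 0 in siRNA libraries too), without both K1 libraries numbered 3 (-0.55, adjusted p = 0.0532, added after seeing the data), and 0 to 1 when 1 library was left out. Upper-quartile scaling moved the median of all genes between control lines from 0.06 to 0.20. Without both K1 libraries numbered 3 the sign changed for REL (-0.16) and BIRC3 (-0.042) between control lines and for NFKBIE (-0.23) and TNFAIP3 (0.010) after siRNA in K1. Leaving out 1 library gave ranges across 0 for values that were not called. After siRNA in TPC-1 these were -0.78 to 0.37 for REL, -0.070 to 0.22 for NFKBIZ and -0.16 to 0.29 for BIRC3. After siRNA in K1 they were -0.12 to 0.0042 for NFKB2, -0.11 to 0.51 for REL, -0.0795 to 0.042 for RELA, -0.23 to 0.073 for RELB, -0.21 to 0.074 for NFKBIA, -0.14 to 0.18 for NFKBIE, -0.058 to 0.011 for NFKBIZ and -0.060 to 0.021 for TNFAIP3. Between lines they were -0.17 to 0.54 for REL, -0.11 to 0.23 for BIRC3 and -0.20 to 0.35 for TNFRSF12A in control libraries, and -0.035 to 0.35 for BIRC3 in siRNA libraries. An unadjusted p under 0.05 after siRNA in TPC-1 was reached by NFKB1 with the block in TPC-1 only (3.37% of all genes), and by NFKBIA, NFKB1 and TNFAIP3 without the TRIM35 siRNA library 3 (4.96%). For the difference between lines NFKB1 reached it under both (2.73% and 3.18%), and for the average TNFAIP3 without that library (2.58%). The wide spread of REL between libraries and the low counts of NFKBIE limit what can be said of them. The cause of these shifts was not tested.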
